A study of Mus musculus with 5 samples.

Results

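The cells described here were alveolar macrophages (AMs) with few transcripts of *Gpnmb*, *Mmp12* and *Mfge8*, 3 genes that macrophages of scarred lungs are known to express. They were chosen by raw counts of unique molecular identifiers (UMIs, 1 per captured transcript). Each cell had 2 or more *Car4* UMIs, 1 or more *Cd68* UMIs, at most 4 UMIs of the 3 genes together, and 0 UMIs of *Top2a*, *Mki67*, *Cd3e* and *Cd79a*. Of 52800 barcodes, 44772 passed the limits on genes (300 to 8000), UMIs (800 to 60000) and mitochondrial UMIs (under 15%), and 2582 of these were members. All levels of the genes in this rule are therefore given as a description.

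The study profiled lung immune cells of adult *Ms4a3-CreER;R26-tdT* mice, of mixed C57BL6/129 background, by droplet scRNA-seq. In these mice a tamoxifen-inducible Cre driven from *Ms4a3*, a gene of granulocyte and monocyte progenitors, switches on the tdT reporter. Of the 5 libraries, 1 came from lungs given PBS (sham) and the others from lungs given bleomycin, taken 3, 7, 14 or 28 days postinjury, and all had the same genotype. Each time point had 1 library. How many mice made up a library was not given in the sources used here, so there is no replicate check, no test was made between libraries, and all intervals below cover counting error only.

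AMs live in the air spaces, where they take up and break down surfactant lipid and inhaled particles. Their identity depends on GM-CSF and TGF-β signals and on the lipid-sensing transcription factor PPARγ. After bleomycin, which damages the epithelium and is followed by scarring, resident AMs are known to be joined by macrophages derived from monocytes.

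The members numbered 1188 of 9238 kept cells in sham (12.9%, exact 95% binomial interval 12.2–13.6), 320 of 8004 at day 3 (4.0%), 446 of 9493 at day 7 (4.7%), 304 of 7757 at day 14 (3.92%) and 324 of 10280 at day 28 (3.15%). All 4 injured libraries thus lay below sham as a share of all kept cells. Of the cells that met the *Car4*, *Cd68* and cycling limits, members were 32.5% in sham and 56.4%, 43.8%, 37.9% and 25.9% at days 3, 7, 14 and 28, so that by this share day 28 alone lay below sham. Library totals were 131210167, 89769386, 151234640, 144984156 and 167506186 UMIs in the same order. The day 7 library held 10000 barcodes and none under 4624 UMIs, whereas the other libraries reached down to 500 or 502 UMIs, so its share stands on another floor. In another count, the kept cells with 3000 or more UMIs were thinned to 3000 UMIs before the rule was applied. These were 7775 cells in sham and 7225, 9493, 6531 and 8547 at days 3, 7, 14 and 28. Members were 31.3% of them in sham (2430 cells) and 5.33%, 6.35%, 4.44% and 4.82% in the injured libraries (385, 603, 290 and 412 cells), so the denominator changed as well. The limits were not scaled to the lower depth, so cells above them before thinning could count as members after it. Ratios given below with the rule applied after thinning compare these other sets of cells, in sham too.

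The limit on *Gpnmb*, *Mmp12* and *Mfge8* did not separate cells with these transcripts from cells without them. Only 428 of the 2582 members (16.6%) had 0 UMIs of all 3 genes. Levels are in CPM. A library's members were pooled, and each gene's UMIs were scaled to the total UMIs of that pool. *Gpnmb*, a lysosomal glycoprotein gene, stood at 169.6 CPM in sham members and at 118.3, 109.3, 72.1 and 96.2 CPM in the injured libraries, in order of time. *Car4* macrophages above the limit had 800.4 CPM of *Gpnmb* in sham. *Gpnmb* made up 97.8% of the 3 genes' UMIs in sham members and 93.8%, 84.1%, 65.6% and 54.4% at days 3, 7, 14 and 28. The limit therefore parted sham cells by *Gpnmb* and by depth, and the members are best called AMs low in *Gpnmb*, *Mmp12* and *Mfge8*.

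The other 2 genes stood low in members but not at the same level in every library. *Mmp12*, the macrophage elastase, had 1.77, 3.76, 12.2, 30.2 and 28.4 CPM in sham and at days 3, 7, 14 and 28. *Mfge8*, a bridging protein for the uptake of dying cells, had 2.11, 4.01, 8.56, 7.59 and 52.2 CPM. Both genes thus stood higher at day 28 than in sham even within the limit. Cells just inside the limit (3 or 4 UMIs) and just outside it (5 or 6 UMIs) were compared in other genes. In sham, *Chil3* stood at 14898.4 CPM in the 509 cells just inside and at 15484.3 CPM in the 469 cells just outside. At day 28 it stood at 11748.6 CPM in 176 cells and at 11868 CPM in 162 cells. At day 3 the 77 cells just inside had 383.4 CPM of *Marco* and 264.9 CPM of *C1qa*, beside 762.4 and 82.5 CPM in the 51 cells just outside. *Chil3* had 10568.6 and 11681 CPM there. *Chil3* thus lay near one level on both sides in these 3 libraries, whereas *Marco* and *C1qa* did not at day 3.

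The edge of the *Car4* limit was not alike in every library. At day 3 the 29 cells with 2 *Car4* UMIs had 3318.4 CPM of *Chil3* and 1187.6 CPM of *C1qa*, beside 1028.6 and 1290.5 CPM in the 196 cells with 1 *Car4* UMI. Both sides thus held much of the interstitial macrophage marker *C1qa*. At day 28 the 41 cells with 2 *Car4* UMIs had 11929 CPM of *Chil3* and 31.7 CPM of *C1qa*, beside 9698.5 and 172.8 CPM in the 121 cells with 1 *Car4* UMI. *Chil3* was thus nearer on both sides at day 28 than at day 3. *Car4*, a carbonic anhydrase gene, stood at 1044.3, 1813.8, 1141.5, 601.3 and 813.6 CPM in all members.

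Depth differed between the libraries and between the members and the cells above the limit. Members had a median of 12505 UMIs in sham and 11901.5, 12094.5, 18833 and 13764.5 at days 3, 7, 14 and 28. The cells above the limit had medians of 18228.5, 20452, 19952, 27515 and 21055 UMIs, higher in every library. Day 14 members were thus the deepest, and their median mitochondrial share of 7.22% was above the 5.35%, 4.39%, 5.6% and 6.04% of sham and days 3, 7 and 28. The rule removed no doublets beyond its marker limits. Scrublet placed 124 members among its highest scores, and their removal is among the alternatives below. Any pair of libraries shared 22 to 41 barcodes, and sham and day 3 shared 2 among members.

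Of the AM markers that the rule did not use, *Chil3* was high in every library, and *Ear1* and *Marco* were present in each at levels that differed. *Chil3*, a chitinase-like protein gene, stood at 14174.1 CPM in sham members and 11312, 13681.7, 9472.4 and 11708.2 at days 3, 7, 14 and 28. *Ear1*, an eosinophil-associated ribonuclease, stood at 569.1, 492.6, 288.3, 240.7 and 626.9 CPM, and the scavenger receptor gene *Marco* at 543.9, 316.1, 528.8, 172.8 and 181.3 CPM. *Chil3* thus lay within 2-fold of sham throughout, whereas *Ear1* was lowest at day 14 and *Marco* was low at days 14 and 28.

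Transcripts of other cell types were present and differed between the libraries. The club cell secretoglobin *Scgb1a1* made up most of the summed epithelial markers, which stood at 5467.2, 137.1, 1762, 431.4 and 279.4 CPM in sham and at days 3, 7, 14 and 28. Interstitial macrophage markers summed to 78.6, 724, 403.6, 471 and 163.1 CPM, with *C1qa* at 14.6 CPM in sham and 200.6 CPM at day 3. Monocyte markers summed to 126.2, 655.3, 87.7, 37 and 14.9 CPM, led by *Plac8* at day 3 with 299.3 CPM. The epithelial markers were thus highest in sham, and the interstitial and monocyte markers at day 3.

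Neutrophil markers summed to 820.6, 735.8, 1204.8, 358.1 and 230.2 CPM, led by *S100a9* in sham and at days 3 and 7. Red cell markers summed to 474.1 CPM in sham and 4.76, 0.685, 102.4 and 133.8 at days 3, 7, 14 and 28. T and NK cell markers stayed at or under 120.8 CPM, B cell markers at or under 68.4 CPM, dendritic cell markers at or under 49.8 CPM, endothelial markers at or under 57.9 CPM and fibroblast markers at or under 121.5 CPM. Defining markers at 0 included *Ly6g*, *Gzma* and *Klrb1c* at day 28, *Ms4a1* at day 14, and 3 hemoglobin genes at day 7.

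Each injured library was set beside sham over the genes that reached 100 CPM in either. A gene is called higher or lower here when its CPM differed 2-fold or more. Of 1831 genes at day 3, 110 were higher (6.01%) and 34 lower (1.86%). Of 1778 genes at day 7, 57 were higher (3.21%) and 38 lower (2.14%). Of 1855 genes at day 14, 91 were higher (4.91%) and 63 lower (3.4%). Of 1867 genes at day 28, 77 were higher (4.12%) and 78 lower (4.18%). The median over all genes compared was −0.03, −0.08, −0.03 and 0.01 on the log2 scale, so the scale itself hardly moved.

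The day 3 library was set apart mainly by interferon-induced genes. Of 39 listed interferon genes that could be compared, 34 were higher at day 3, with a median log2 ratio to sham of 2.81. At day 7 this held for 5 of 13, at day 14 for 3 of 11 and at day 28 for 3 of 12. The genes named from here on lie beyond that list. Whether interferon also induced any of them in these cells was not tested.

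Matrix and scar-associated genes were among those with the highest ratios at days 14 and 28. *Spp1*, which encodes the secreted matrix protein osteopontin, stood at 652.5 CPM in sham and 4336.2, 2747.1, 8673.5 and 5926.9 at days 3, 7, 14 and 28. Every injured library lay at least 4-fold above sham, and day 14 was the highest. Its log2 ratio to sham was 3.73 at day 14 (95% counting interval 3.70 to 3.76), and 2.93 in members with 0 reporter UMIs. These were 26 cells at a lower depth (a median of 9546 UMIs, beside 18833 in all day 14 members), and 59.8% of day 14 B cells also held a reporter UMI, so that the split also sorts members by depth. *Fn1*, which encodes fibronectin, stood at 206.9, 985.3, 947.2, 2850.1 and 2233 CPM, with a log2 ratio of 3.78 at day 14 (3.73 to 3.84) and 3.43 at day 28 (3.37 to 3.49). *Fn1* was thus near one level at days 3 and 7 and higher again at days 14 and 28.

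**Figure D1:**
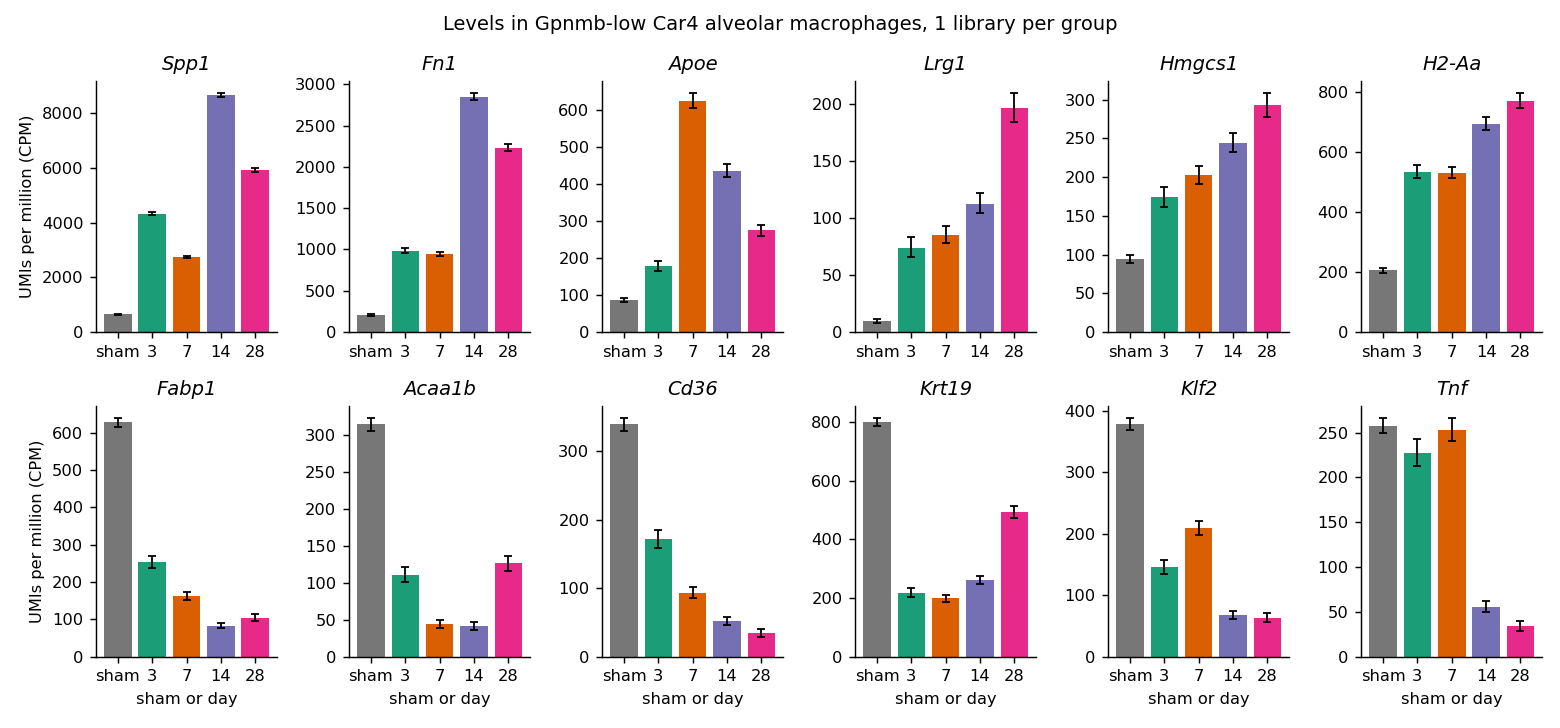
CPM of named genes in the members of the 5 libraries, 1 bar per library with its exact 95% Poisson interval, on linear axes that start at 0 and differ between genes. *Spp1* goes from 652.5 CPM in sham to 8673.5 CPM at day 14, and *Cd36* from 339 CPM in sham to 34.2 CPM at day 28.

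Other genes of the scar-associated list followed different courses. *Timp2*, an inhibitor of matrix metalloproteinases, stood at 32.3, 69.4, 102.4, 201 and 150.3 CPM. *Trem2*, a lipid receptor of macrophages, stood at 62.3, 122.6, 138.9, 171 and 164.4 CPM, and its log2 ratios of 1.16, 1.46 and 1.40 at days 7, 14 and 28 were 0.91, 0.83 and 0.99 with the rule applied after thinning. *Apoe*, the lipid carrier apolipoprotein E, stood at 86.9, 177.7, 624.7, 435.4 and 274.6 CPM, with its highest level at day 7. All 3 genes lay below every injured library in sham. Of the list, 4 of 11 genes compared were higher at day 3, 6 of 12 at day 7, 5 of 12 at day 14 and 6 of 12 at day 28, and 0 were lower by 2-fold. Its median log2 ratios were 0.89, 0.93, 0.57 and 0.80. The list holds genes known from earlier work on lung scarring, some of which were named for these same libraries, so it is not independent of them.

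The ratios of *Apoe* depended on how the members were drawn. With at most 2 UMIs of *Gpnmb*, *Mmp12* and *Mfge8*, the log2 ratio was 0.21 at day 3 and 0.96 at day 28. With no limit on these genes it was 5.23 at day 14 and 5.04 at day 28, beside 2.32 and 1.66 in the members as drawn. With *C1qa*, *C1qb* and *C1qc* held to 4 UMIs, the day 14 log2 ratio was 3.36 for *Spp1* and 3.69 for *Fn1*, beside 3.73 and 3.78 over all members.

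Several antigen presentation genes of MHC class II were higher in each injured library. *Cd74*, the invariant chain that guides class II molecules, stood at 569.5 CPM in sham and 1162.8, 1318.9, 1563.4 and 1762.6 at days 3, 7, 14 and 28. *H2-Aa*, a class II α chain, stood at 205.6, 534, 530.7, 694.2 and 770.5 CPM. Both genes were lowest in sham and highest at day 28. Of 7 list genes compared, 4 were higher at days 3 and 7 and 5 at days 14 and 28, and 0 lower, with median log2 ratios of 1.03, 1.21, 1.35 and 1.49. The loading factor *H2-DMa* stayed within 2-fold of sham, with a largest log2 ratio of 0.41 at day 14.

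These class II ratios were not evenly spread over the members. At day 14, the 26 members with 0 reporter UMIs had 339.2 CPM of *Cd74* (272.1 to 418), and the 278 members with 1 or more reporter UMIs had 1619.4 CPM. The log2 ratio of day 14 to sham turned negative when only members with 0 reporter UMIs were compared, at −0.77 for *Cd74*, −0.39 for *H2-Aa*, −0.35 for *H2-Ab1* and −0.85 for *H2-Eb1*. The list median was then −0.35. The 26 cells had a median of 9546 UMIs, beside 18833 in all day 14 members, and cells with fewer UMIs are more often at 0 for the reporter.

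Day 7 members with 0 reporter UMIs had 774.3 CPM of *Cd74*, beside 1705.2 CPM in the others, and the day 7 ratio to sham was 0.42 in the former. In sham and at days 3 and 28 the levels were close, with 1720.1 and 1782.3 CPM at day 28. The list median was higher when the rule was applied after thinning, at 2.59, 4.09, 3.65 and 4.22. With at least 3 *Car4* UMIs it was 0.66 at day 3, and with doublets removed 0.85. With 0 reporter UMIs it was 0.37 at day 7. With the C1q genes held to 4 UMIs the list median was 0.82, 0.97, 1.22 and 1.56, so the day 3 and day 7 medians were then under 2-fold. The day 3 median was under 2-fold in 5 alternatives, and the day 7 median in 3.

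Several genes of cholesterol synthesis were higher at each day. *Hmgcs1*, which encodes an early enzyme of the mevalonate pathway, stood at 94.2 CPM in sham and 174, 202.3, 244.4 and 292.4 at days 3, 7, 14 and 28. *Idi1*, which makes the isoprene building block dimethylallyl diphosphate, stood at 67.3, 167.5, 149.4, 215.7 and 147.9 CPM. *Cyp51*, the lanosterol demethylase, stood at 55.5, 154.9, 130.7, 209.6 and 124.3 CPM. *Hmgcs1* was highest at day 28, and *Idi1* and *Cyp51* at day 14.

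Of the cholesterol list, 4 of 8 genes compared were higher at days 3 and 7, 8 of 10 at day 14 and 4 of 6 at day 28, and 0 were lower by 2-fold. The medians were 1.16, 1.02, 1.45 and 1.15. With the rule applied after thinning, the medians were 0.82, 0.5, 0.82 and 0.69, and with no limit on *Gpnmb*, *Mmp12* and *Mfge8* they were 0.82, 0.55, 0.9 and 0.63, all under 2-fold. In no alternative did a median of this list change sign.

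Stretches of 30 bases upstream of these genes are shown because 4 of 8, 4 of 8, 8 of 10 and 4 of 6 genes compared were higher. Sterol-regulated genes are known to carry binding motifs for SREBP and for the CCAAT-binding factor NF-Y. The 250 bases before the start of each gene were searched on both strands in RefSeq promoters of build GRCm38.p6, and 16 of the 23 listed genes had an entry. The sterol regulatory element TCACNCCAC was present in 1.05% of all 32851 promoters and in 1 of the 16, and CCAAT in 33.8% of all promoters and in 16 of the 16. No shown motif overlapped the other. Capitals mark the motif, the sterol regulatory element in *Hmgcs1* and CCAAT or its reverse complement ATTGG in the other genes. Each stretch is written 5′ to 3′ on the gene's strand.
Hmgcs1 (chr13:119690204-119690233, plus strand): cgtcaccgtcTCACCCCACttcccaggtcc
Idi1 (chr13:8885576-8885605, plus strand): catggtccaaggtgccATTGGctggcgacc
Cyp51 (chr5:4104709-4104738, minus strand): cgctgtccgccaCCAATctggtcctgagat
Mvd (chr8:122443432-122443461, minus strand): ccggccagcgggCCAATcatatggcagcgc
Msmo1 (chr8:64733616-64733645, minus strand): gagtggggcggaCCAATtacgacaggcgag
These matches describe the letters in the window and show no binding in these cells.

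*Cd36*, *Fabp1* and *Acaa1b*, which act in fatty acid uptake or breakdown, were among the genes with the lowest ratios. *Cd36*, a fatty acid and scavenger receptor, stood at 339 CPM in sham and 171.7, 93.5, 52.5 and 34.2 at days 3, 7, 14 and 28. It was lower at each later library, with a log2 ratio to sham of −3.31 at day 28 (−3.55 to −3.08). With no limit on *Gpnmb*, *Mmp12* and *Mfge8* that ratio was −1.60, and over the alternatives the day 14 ratio of −2.69 ran from −3.32 to −1.56. *Fabp1*, a fatty acid binding protein, stood at 627.4, 253.2, 162.7, 83.5 and 104.4 CPM. *Acaa1b*, a peroxisomal thiolase, stood at 314.1, 110.6, 43.8, 41.9 and 126.3 CPM. *Fabp1* and *Acaa1b* were 2 of the 7 genes in sham that lay at least 2-fold above every other library, out of 2071 genes at 100 CPM in any library (0.338%).

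*Pex11a*, which acts in peroxisome division, stood at 104.6, 44.1, 29.3, 19.7 and 74.9 CPM, and *Cidec*, a lipid droplet protein gene, at 401.5, 202.1, 110, 119.7 and 237.8 CPM. Both were lowest at day 7 or 14 and nearer to sham at day 28. The wider list of surfactant and lipid handling genes did not move one way. Of 20, 17, 17 and 18 genes compared, 1, 1, 2 and 1 were higher and 1, 2, 2 and 2 lower at days 3, 7, 14 and 28. The cholesterol exporter *Abcg1* stood at 1468.3, 963.7, 997.6, 886.9 and 1546.9 CPM, and *Msr1*, a scavenger receptor for modified lipoproteins, at 33.9, 104.5, 97.5, 159 and 55.4 CPM. *Abcg1* thus stayed within 2-fold of sham, and *Msr1* was higher at days 3 and 14, and at day 7 it did not reach the level at which genes were compared.

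The *Fabp1* upstream region is shown because the gene is a known target of PPAR factors, which bind direct repeats with 1 base between them. A repeat of AGGNCA with 1 base between its copies was searched on both strands and occurred in 0.338% of the 32851 promoters, *Fabp1* among them. In *Fabp1* it overlapped neither motif above, and the capitals mark its reverse complement.
Fabp1 (chr6:71199804-71199833, plus strand): acaatcacTGACCTATGGCCTatatctgag
*Pparg* itself stood at 124.3, 102.3, 100.2, 137.7 and 110.4 CPM, with log2 ratios between −0.31 and 0.15.

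Of the 29 AM identity genes, most stayed within 2-fold of sham. None was higher and 2 lower at day 3, none higher and 3 lower at day 7, 1 higher and 7 lower at day 14, and none higher and 1 lower at day 28. The medians were −0.25, −0.27, −0.18 and −0.09. The keratin genes *Krt19* and *Krt79* were among the lower genes, with *Krt19* at 800.2, 218.4, 199.2, 261.4 and 492.2 CPM and *Krt79* at 826.3, 447.5, 232.1, 289.6 and 448.7 CPM. Both were lowest at day 7. *Krt19* is also known from epithelium. The summed epithelial markers were highest in sham (5467.2 CPM), as *Krt19* was, and lowest at day 3 (137.1 CPM). The part of epithelial transcripts in the *Krt19* values was not tested.

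*Marco* was the identity gene lower at day 28, with a log2 ratio of −1.59 (−1.69 to −1.48). At day 14 its ratio was −1.65, and −0.28 in the 26 members with 0 reporter UMIs. *Ctsk*, a cysteine protease gene, was the identity gene higher at day 14, with a log2 ratio of 1.05, which turned to −0.14 when the rule was applied after thinning. The GM-CSF receptor genes *Csf2ra* and *Csf2rb* and the TGF-β receptor genes *Tgfbr1* and *Tgfbr2* stayed within 2-fold of sham on every day. *Bhlhe41*, a repressor needed for AM self-renewal, stood at 168.4, 77.7, 139.6, 109 and 296.7 CPM, low at day 3 and high at day 28. Its day 3 log2 ratio of −1.12 was −0.95 with no limit on *Gpnmb*, *Mmp12* and *Mfge8*, and that of *Ear1* at day 14, −1.24, was −0.52 with the rule applied after thinning.

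**Figure D2:**
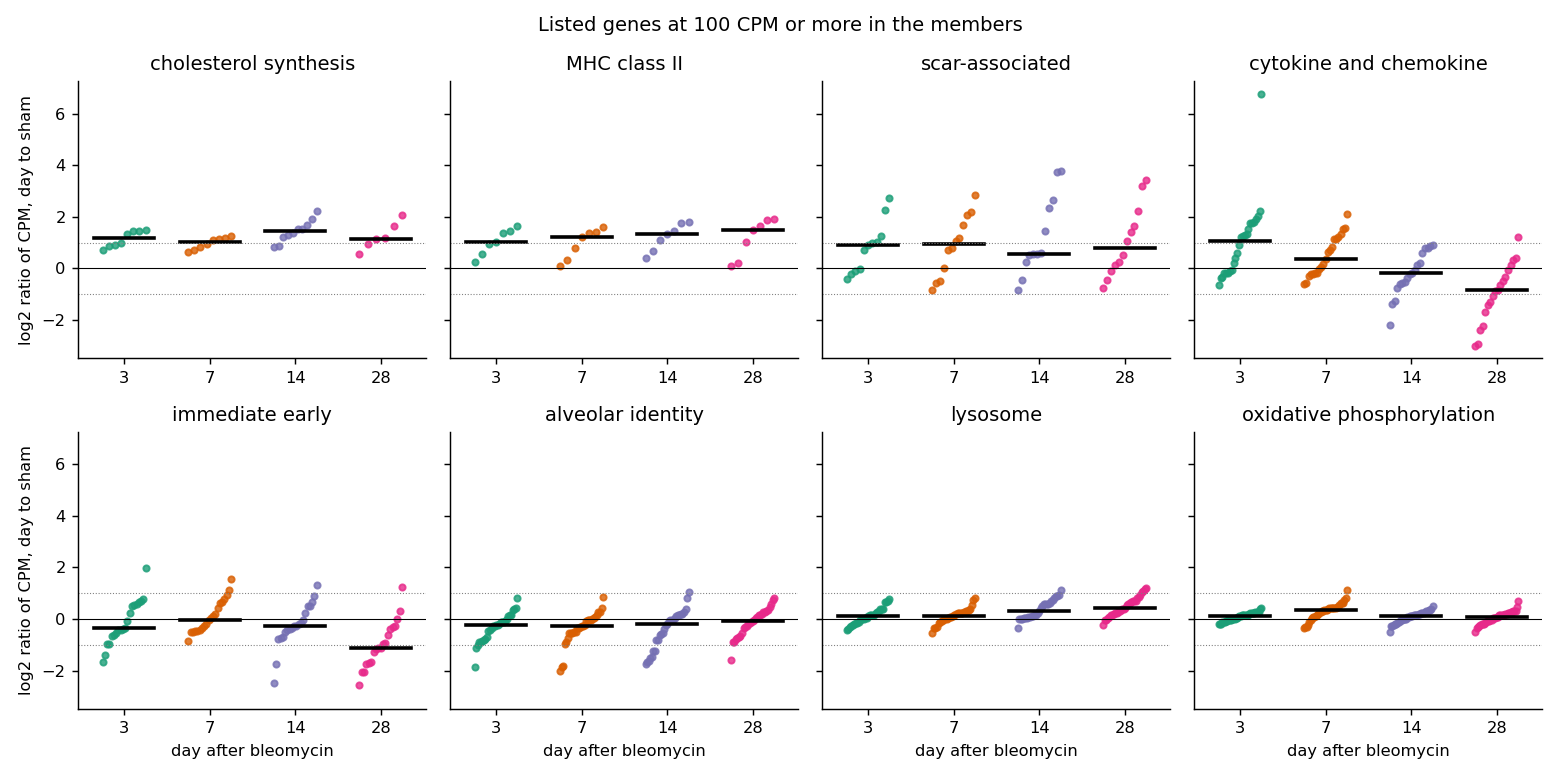
Log2 ratio to sham of the listed genes at days 3, 7, 14 and 28, 1 point per gene at 100 CPM or more in either library, with the list median as a bar. The MHC class II medians are 1.03, 1.21, 1.35 and 1.49, and the inflammatory medians go from 1.06 at day 3 to −0.85 at day 28.

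Several genes of inflammation were high early and low late. *Il1b*, which encodes the cytokine interleukin-1β, stood at 487.6 CPM in sham and 1654.1, 760.3, 839.1 and 183.4 at days 3, 7, 14 and 28. *Cxcl2*, a neutrophil chemokine, stood at 785, 1878.8, 2348.9, 1196.6 and 242.8 CPM. Both were thus above sham at days 3, 7 and 14 and below it at day 28. The summed neutrophil markers stood at 820.6, 735.8, 1204.8, 358.1 and 230.2 CPM in the same order. The monocyte markers stood at 126.2, 655.3, 87.7, 37 and 14.9 CPM. Both sums were lowest at day 28 too, and the part of these cell types in the inflammatory genes was not tested. Of the inflammatory list, 12 of 24 genes compared were higher at day 3, 7 of 21 at day 7, 0 of 18 at day 14 and 1 of 18 at day 28, and 0, 0, 3 and 8 were lower. The day 3 list median of 1.06 was under 2-fold in 5 alternatives, down to 0.61 in members with 0 reporter UMIs.

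*Tnf*, the tumor necrosis factor gene, showed the late decrease without an early increase. It stood at 257.6 CPM in sham and 227.6, 253.3, 55.7 and 33.8 at days 3, 7, 14 and 28. The monocyte chemokine gene *Ccl2* stood at 203, 154.9, 181.7, 78 and 25.6 CPM, and *Ccl3* at 251, 237.2, 216, 147.3 and 48.5 CPM. All 3 genes stayed within 2-fold of sham at days 3 and 7 and lay at least 4-fold below it at day 28, although in members with 0 reporter UMIs the day 28 log2 ratio of *Ccl2* was −1.85 beside −2.99. The *Tnf* ratio at day 14 was −2.21, and −1.60 with the rule applied after thinning. *Il1a*, which encodes interleukin-1α, stood at 120.2, 160.7, 125.7, 50.6 and 25.3 CPM, with a log2 ratio of −2.25 at day 28 (−2.53 to −1.98), and −3.08 in members with 0 reporter UMIs. The *Il1a* ratio at day 14 was −1.25, and −0.46 in members with 0 reporter UMIs, and that of *Ccl2* was −1.38 and −0.64.

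Several chemokine genes were highest at day 3, where monocyte and interstitial macrophage markers were highest too. *Ccl8* stood at 1.7 CPM in sham, 185.8 at day 3, 61.3 at day 7 and 2.03 at day 14, and *Ccl5* at 37.8, 175.5, 42.1, 23 and 47.9 CPM. The log2 ratio of *Ccl8* at day 3 was 6.77, and 1.87 when the rule was applied after thinning, and the gene was among the most uneven over day 3 members. After thinning to 3000 UMIs, 1.6% of day 3 members held a *Ccl8* UMI, beside 0.266% in sham, so that few members held its UMIs. This share was not compared with that in a cell type that should lack the gene. The *Ccl5* ratio at day 3 was 2.22, and 0.77 in members with 0 reporter UMIs. Other genes with large day 3 ratios were *Ms4a6c*, a membrane protein gene, *Wfdc17*, a small secreted protein gene, *Cfb*, a complement factor, and *Gadd45b*, a stress-induced gene. *Ms4a6c* stood at 35.9, 304.9, 148, 195.9 and 150.9 CPM and *Wfdc17* at 107.8, 494.9, 584.9, 461.1 and 274.8 CPM, above sham in every injured library. The *Wfdc17* ratio of 2.20 was 0.7 when the rule was applied after thinning. With the C1q genes held to 4 UMIs the *Ms4a6c* ratio was 2.86, beside 3.09 over all members and 4.30 with the rule applied after thinning. The part of monocytes in these values was not tested.

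Of the 2071 genes, 42 lay at least 2-fold above every other library at day 3 (2.03%), and 28 of these were listed interferon genes. *Fcgr1*, the high-affinity IgG receptor, stood at 141.4 CPM at day 3 and between 32.3 and 48.8 CPM elsewhere. *Id3*, an inhibitor of helix-loop-helix factors, stood at 36.5, 108.8, 26.4, 5.74 and 1.95 CPM. Its relative *Id1* stood at 109.5, 60.9, 40.4, 17.9 and 13.2 CPM, and *Id2* at 163.8, 370.3, 306.9, 339.1 and 427.5 CPM. *Id1* and *Id3* were thus lowest at day 28, whereas *Id2* was lowest in sham. The day 3 log2 ratio of *Id3* was 1.58, and 0.95 with no limit on *Gpnmb*, *Mmp12* and *Mfge8*, and that of *Id2* was 1.18, and 0.74 with the rule applied after thinning. At the other end, 2 genes lay below every other library at day 3 (0.0966%), among them *Nav2* at 34.6 CPM.

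*Hilpda*, a lipid droplet gene induced by low oxygen, stood at 61.7, 322.2, 124.2, 113.9 and 112.8 CPM and *Cdkn1a*, the cell cycle inhibitor p21, at 384.9, 1112.4, 619, 386.5 and 249.7 CPM. Both were highest at day 3. The other targets of p53 that reached the level limit did not all follow *Cdkn1a*, since 1 of 7 listed genes was higher at day 3. *Btg2* and *Plk3*, which are also p53 targets, were lower at day 28 with log2 ratios of −1.47 and −1.70, whereas *Phlda3*, another p53 target, was higher with 1.81.

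Day 7 had few genes of its own, with 2 above every other library (0.0966%) and 4 below (0.193%). *Retnla*, a marker of alternative activation, stood at 29.4, 8.02, 148.5, 8.61 and 4.33 CPM and was high at day 7 alone. Its log2 ratio of 2.34 was 0.52 in members with 0 reporter UMIs and 5.06 with at least 3 *Car4* UMIs. *Slc7a11*, the cystine transporter, stood at 52.4, 116.6, 186.4, 136.7 and 59.6 CPM. With CPM averaged per cell its log2 ratios of 1.15, 1.83 and 1.38 at days 3, 7 and 14 were 0.39, 1.02 and 0.75. *Gsr*, glutathione reductase, stood at 225, 223.6, 520.5, 205.9 and 558.7 CPM. *Gsr* was thus high at days 7 and 28 and near sham otherwise. *Fth1*, the ferritin heavy chain, was highest at day 7 with 25703.4 CPM, within 2-fold of its 13545.4 CPM in sham. Of 35 genes of oxidative phosphorylation, 1 was higher at day 7, with a list median of 0.33.

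Day 14 had 4 genes above every other library (0.193%) and 4 below (0.193%). *Ccdc80*, an extracellular matrix protein gene, stood at 53.9, 80, 114.8, 250.8 and 109.6 CPM, with a log2 ratio of 2.22 at day 14, and 0.93 in members with 0 reporter UMIs. *Nr4a2*, a nuclear receptor gene, stood at 202 CPM at day 14 and between 44.4 and 99.8 CPM elsewhere. *Gdpd3*, a lysophospholipase gene, stood at 123.8, 103.3, 119.7, 14.3 and 29.7 CPM, and *Alas1*, the first enzyme of heme synthesis, at 160.5, 138.1, 131.4, 63.5 and 129.9 CPM. Both had their lowest levels at day 14. *Ccnd2*, cyclin D2, stood at 1104.9, 688.9, 481.8, 255.5 and 406.5 CPM, although cells with *Top2a* or *Mki67* UMIs had been left out.

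Day 28 had 4 genes above every other library (0.193%) and 26 below (1.26%). *Ap1s2*, an adaptor of vesicle coats, stood at 54.5, 64.7, 99.7, 97.9 and 272.7 CPM. *Lrg1*, a secreted glycoprotein gene, stood at 9.8, 74, 85.1, 112.6 and 196.2 CPM, lowest in sham and highest at day 28, with a log2 ratio of 4.32 (4.07 to 4.59). Over the alternatives this ratio ran from 3.5 with CPM averaged per cell to 5.74 in members with 0 reporter UMIs. Among the 26 were *Ccl7*, with 50.4, 143.4, 116.1, 24.5 and 3.68 CPM, *Rasgef1b*, an exchange factor induced in activated macrophages, with 319, 217.4, 164.1, 137.9 and 32.3 CPM, and *Ch25h*, which makes 25-hydroxycholesterol, with 77.5, 120.1, 137, 87.9 and 22.1 CPM. In sham, 25 genes lay below every other library (1.21%), *Lrg1*, *Fn1*, *Spp1* and *Ms4a6c* first among them.

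Several immediate early genes were lower at day 28. These genes switch on within minutes of stimulation and also with tissue digestion. Of 19 compared, 10 were lower and 1 higher at day 28, with a median of −1.11, beside 2, 0 and 2 lower of 20 at days 3, 7 and 14. *Egr1* stood at 493.8, 155.4, 362.4, 408.3 and 119.5 CPM, and *Klf2*, a factor of quiescence, at 379.1, 145.7, 209.3, 67.8 and 63.9 CPM. *Dusp1*, a phosphatase of MAP kinases, stood at 410.1, 641.3, 1213.1, 1022.9 and 967 CPM and was the gene higher at day 28. *Fos* stood at 1012.1, 745.3, 1708.6, 1448.9 and 1247.4 CPM, so these genes did not share 1 course.

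Of 30 listed lysosomal genes compared at day 28, 4 were higher and 0 lower. *Psap*, prosaposin, stood at 2633.9, 2693.3, 3213.7, 4602.8 and 6030.6 CPM, and *Ctsd*, cathepsin D, at 3671.7, 3659.3, 6400.2, 6780.8 and 7746 CPM. Both were near sham at day 3 and highest at day 28. *Ctsb*, *Ctsd*, *Grn* and *Psap* were the 4 genes. With the rule applied after thinning, the day 28 log2 ratios of *Ctsb*, *Ctsd* and *Grn* were 0.84, 0.84 and 0.78. The list median was 0.13, 0.13, 0.30 and 0.41 at days 3, 7, 14 and 28.

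Of MHC class I genes, 5 of 10 compared were higher at day 3, with a list median of 0.96, beside 0 of 9 at day 7, 1 of 8 at day 14 and 1 of 8 at day 28. *H2-K1* stood at 545, 1614, 865.2, 1177.2 and 1065.3 CPM. Fc receptor *Fcgr2b*, the inhibitory IgG receptor, stood at 70.8, 168.7, 131.2, 143.5 and 101.4 CPM, and its day 14 log2 ratio of 1.02 was 0.45 with no limit on *Gpnmb*, *Mmp12* and *Mfge8*. Among glycolysis genes, 1 of 9 was higher (*Pgam1*) and 1 lower (*Eno1*) at day 28, and the *Pgam1* ratio of 1.07 was 0.8 with the rule applied after thinning. *Lars2* and *AY036118*, both known to take up reads of ribosomal RNA, stood at 82.9, 549.5, 132.6, 285.2 and 340.9 CPM and at 16.8, 51.1, 105.9, 184.1 and 226.3 CPM and are uncertain.

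Within a library the members were uneven in a small set of genes. After thinning to 3000 UMIs, the variance over the mean of UMIs had a median between 1.04 and 1.07 over genes, near the value for random counting. In sham it was 1542 for *Scgb1a1*, 194.8 for *Hbb-bs* and 158 for *S100a9*, markers of club cells, red cells and neutrophils, and 64 for *Cd74*. At day 3 it was 66.7 for *S100a9*, 53.7 for *Ccl8*, 47.7 for *Spp1* and 45.8 for *Cd74*. At day 7 it was 62.3 for *Apoe* and 59.6 for *Retnla*. At day 14 and day 28 *Spp1* had 28.1 and 31.2, and *Hmox1*, heme oxygenase, had 16 at day 28. *Cd74*, *Spp1* and *Apoe* thus varied between members as well as between libraries. *Gm42418* and *Malat1*, found in nearly all members, had 30.9 and 18.6 at day 14 and 27.0 and 20.1 at day 28. The measure was not adjusted for a gene's mean level and can rise with that level.

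The reporter is read from the RFP feature, taken here as tdT. Cells with 3000 or more UMIs were thinned to 3000 UMIs. Of these members, 28.0% had 1 or more RFP UMIs in sham and 36.2%, 22%, 57.9% and 31.3% at days 3, 7, 14 and 28. B cells, which should lack the reporter, had 17.6%, 12.1%, 24.8%, 37.0% and 17.2%. The day 7 share was thus not apart from the B cell background, with intervals of 18.2 to 26.1% in members and 19.3 to 30.9% in B cells. With 3 or more RFP UMIs the shares were 2.66%, 5.13%, 1.79%, 31.3% and 13.9% in members and 3.15%, 0.89%, 3.04%, 1.23% and 1.91% in B cells. At that limit, sham and day 7 members were at or under the background, and day 3 (2.96 to 8.19%), day 14 (26.1 to 36.9%) and day 28 (10.3 to 18.2%) members were above it.

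Before thinning, 65.0%, 66.9%, 56.1%, 91.4% and 65.1% of members had an RFP UMI, at median depths of 12505, 11901.5, 12094.5, 18833 and 13764.5 UMIs. B cells had 20.1%, 21.7%, 40.4%, 59.8% and 23.4%, at 4122.5, 5656, 6880, 5417.5 and 3219 UMIs. The RFP level was 129.8, 182.8, 108.8, 989 and 366.9 CPM in members and 118.6, 65.3, 116.8, 194.6 and 83.7 CPM in B cells. Day 14 was thus the library with the highest reporter level in members. It was also the highest in B cells, in *Car4* macrophages above the limit (469.5 CPM) and in the C1q macrophages described below (1682.2 CPM). The reporter marks cells that had *Ms4a3*-driven Cre when tamoxifen was given.

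**Figure D3:**
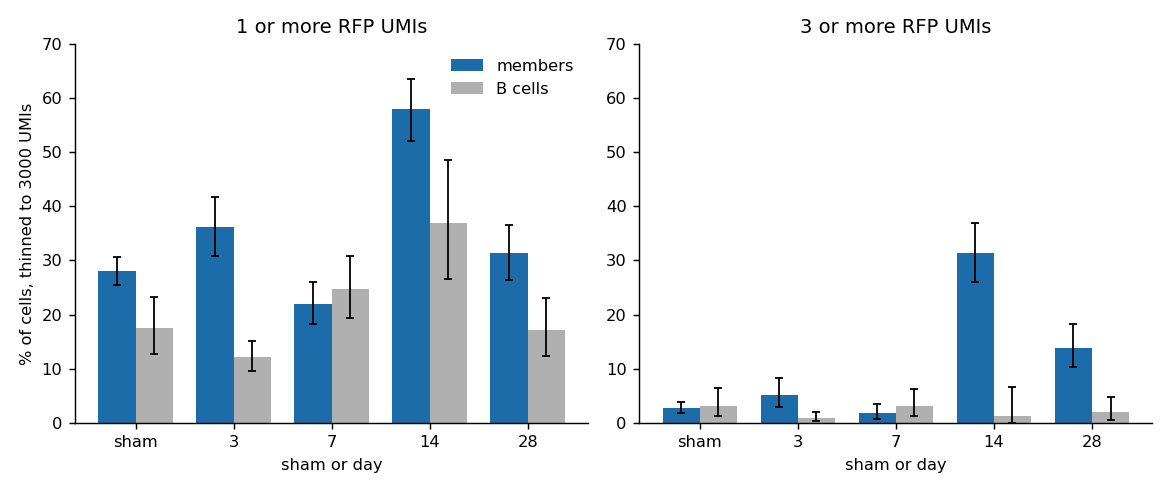
Share of cells with RFP UMIs after thinning to 3000 UMIs in members and in B cells of the 5 libraries, with exact 95% binomial intervals. Day 14 members reach 57.9% with 1 or more UMIs, above the 37.0% of B cells, whereas the intervals of day 7 members (22%) and B cells (24.8%) overlap.

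The members were compared within each library with the 4713 *Car4* macrophages above the limit, leaving out the genes of the rule. UMIs were summed per class and library and tested with edgeR's quasi-likelihood test with library as a block and Benjamini-Hochberg adjustment over 10900 genes. The classes were set by UMIs of 3 genes in these same cells and the members were the shallower class, so other genes that go with *Gpnmb* or with depth differ by the way the classes were made. Of the 10900 genes, 395 were higher in members (3.62%) and 575 lower (5.28%). With cells thinned to 3000 UMIs, 123 and 216 of 8276 genes were called. Without the library block 0 genes were called in either direction, with 105 higher and 259 lower at an unadjusted p under 0.05. Leaving out day 28 gave 198 and 353 calls, leaving out day 7 gave 200 and 352, and leaving out sham gave 263 and 439.

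Several lysosomal, iron and lipid handling genes were lower in members than in the cells above the limit. Most of the lipid genes were not called in either direction. Of 38 lysosomal genes 24 were lower and 0 higher, of 29 oxidative and iron genes 15 and 0, and of 29 surfactant and lipid genes 12 and 1. *Ctsd* had a log2 difference (members minus cells above the limit) of −0.70 (SE 0.061, adjusted p = 0.000119) and *Fth1* of −0.70. The fatty acid binding protein *Fabp5* had −1.08, *Fabp4* −0.92 and *Marco* −0.54. *Fstl1*, a secreted follistatin-like protein, was the gene with the largest decrease, at −3.36 (SE 0.203, adjusted p = 1.34e-05). It stood at 4.15 CPM in sham members and 41.7 CPM in the cells above the limit, and was lower in 5 of 5 libraries.

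Of 11 class II genes, 6 were called higher in members and 1 lower. *Cd74* had a log2 difference of 0.92 (SE 0.194, adjusted p = 0.0148) and was higher in 5 of 5 libraries, and *H2-Aa* had 1.00. Of 35 inflammatory genes, 5 were higher and 7 lower. *Il1b* was among the higher, with 0.56 (adjusted p = 0.000216), and 7 of 25 immediate early genes were higher and 1 lower. Of 29 AM identity genes, 3 were higher in members and 9 lower. *Ear1* and *Ear2* were among the higher, at 0.45 and 0.42, and *Chil3* differed by 0.02 (SE 0.067). Of 27 scar-associated genes, 9 were lower in members, among them *Spp1* (−0.49) and *Trem2* (−0.70), and 1 was higher, *Fn1* (0.36). Markers of monocytes (3 of 6), neutrophils (2 of 5) and endothelium (2 of 4) were among the genes higher in members. The 10 genes with the largest increases among those higher in every library, such as *Cyp4b1*, *Egfl7* and *Tspan7*, stood at or under 14.1 CPM in members. The 4 endothelial markers had a median log2 difference of 1.64. The part of endothelial and other cell types in these 10 genes was not tested. Cholesterol synthesis genes did not stand apart, with 0 higher and 1 lower of 23.

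The members were also compared with C1q macrophages, cells with 5 or more UMIs of *C1qa*, *C1qb* and *C1qc*, no *Car4* UMI and the same limits on the other genes of the rule. The comparison used days 3, 7, 14 and 28, because sham held 19 such cells. The classes were set by *Car4* and C1q UMIs in these same cells, so genes that go with either differ by the way the classes were made, and the counts below are a description. Of 10381 genes, 1431 were higher (13.8%) and 1519 lower (14.6%) in members by the same edgeR test. Without the library block 566 and 668 were called, and leaving out day 7 gave 393 and 692.

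Members had higher levels of 19 of 29 AM identity genes, with 1 lower, and of 22 of 23 cholesterol synthesis genes, with 0 lower. *Krt79* had the largest log2 difference, 6.21 (SE 0.615, adjusted p = 0.00121), followed by genes such as *Egfem1*, *Htr2c*, a serotonin receptor, and *Fabp1* (5.50). *Hmgcs1* had 1.79 and *Idi1* 1.81. Of class II genes, 10 of 11 were lower in members and 0 higher, with *Cd74* at −2.56. Lower too were 77 of 112 interferon genes (2 higher), 20 of 36 inflammatory genes (5 higher) and 17 of 25 immediate early genes (1 higher). *Prg4*, which encodes lubricin, and *Alox15*, a lipoxygenase, had the largest decreases, at −8.68 and −8.50. *Apoe* had −5.02 and *Ccl2* −3.20, whereas *Spp1* differed by 0.28 with an adjusted p of 0.678. *Cd74* was thus lower in members than in C1q macrophages and higher than in *Car4* macrophages above the limit.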

How the data were processed

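The authors aligned reads to mm10 and counted UMIs (Cell Ranger 6.0.0, per the submitters' processing notes). The deposited matrices hold raw counts for 28693 features, with no normalization, and no barcode under 500 UMIs (4624 at day 7). Members, gene lists and tests were chosen with earlier results of these data known. Member UMIs were summed per library (total 14688743, 3988779, 5838108, 5925083 and 4617608 UMIs in sham and at days 3, 7, 14 and 28) and scaled to CPM, with exact 95% Poisson and binomial intervals (scipy 1.17.1). UMIs mark molecules, and intervals cover counting error only. Symbols given to 2 features (67 in all) were left out of lists.

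Genes named for a day were the 10 largest increases and decreases of 2-fold or more, leaving out genes of the rule, interferon, sex-linked, mitochondrial and ribosomal protein genes, markers of other cell types and unnamed gene models, with list members at 2-fold and all identity genes. Genes apart in 1 library were the 5 largest per direction, those of the class tests the 10 largest with an adjusted p under 0.05 and 1 direction in every library, and variable genes the 8 largest. *Fos*, *H2-DMa* and *Abcg1* were named after their values were seen.

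Classes were tested with edgeR 4.0.16 (quasi-likelihood, TMM, filterByExpr, library block, at least 20 cells per class and library) in R 4.3.3, and with DESeq2 1.42.0 as an alternative. The procedures were tested on simulated data. The alternatives covered doublets (Scrublet in scanpy 1.11.5, the highest scores at a rate set by the number of barcodes), the mitochondrial, *Car4*, *Gpnmb* and UMI limits, C1q, the reporter, averaging per cell, TMM scaling and a limit of 50 or 200 CPM. Lifting the limit on *Gpnmb*, *Mmp12* and *Mfge8*, and applying the rule after thinning to 3000 UMIs, were chosen after seeing the data. Shares after thinning count only cells that had 3000 or more UMIs. Some genes covered by these naming rules are not reported here.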

Additional observations from a re-analysis of the deposited data

Results flagged for a closer look

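*Scgb1a1*, the club cell secretoglobin, stood above the level of *Car4* macrophages over the limit in sham members (log2 difference 2.96) and below it at day 28 (−2.04), and the gene had an adjusted p of 0.939 in edgeR's test over the 5 libraries. *Hbb-bs*, a hemoglobin gene, stood above that level in sham members (1.96) and below it at day 14 (−2.75), with an adjusted p of 0.708. What drew attention to both was the opposite direction in 2 libraries. The difference between the libraries was not tested, since each time point has 1 library.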

How the results depend on the processing

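With a limit of 50 CPM, 184 genes were higher and 73 lower at day 3, 88 and 73 at day 7, 144 and 106 at day 14, and 121 and 124 at day 28. With 200 CPM, 57 were higher at day 3, 32 higher and 22 lower at day 7, 45 and 36 at day 14, and 43 and 50 at day 28. Here the alternative itself changes how many genes are compared. Under the other alternatives each of these counts stayed within 1.5 times its value. Of 227 called pairs of a gene and a day, 157 stayed at 2-fold or more under every alternative and 70 fell under it in at least 1. Among the called gene values, 5 changed sign under an alternative. With 0 RFP UMIs at day 14 these were *Cd74* (−0.77), *H2-Aa* (−0.39), *H2-Ab1* (−0.35) and *H2-Eb1* (−0.85), with a class II median of −0.35, and with the rule after thinning *Ctsk* (−0.14). The cause was not tested.

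With the rule after thinning the share of members was 31.3% in sham and 5.33%, 6.35%, 4.44% and 4.82% at days 3, 7, 14 and 28. The reporter share was 65.0%, 66.9%, 56.1%, 91.4% and 65.1% without thinning, and 2.66%, 5.13%, 1.79%, 31.3% and 13.9% at 3 or more UMIs.

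Against *Car4* macrophages above the limit, 227 genes were higher in DESeq2, 123 higher and 216 lower after thinning, and 945 lower with no filter on low counts. Leaving out 1 library in turn gave 198 to 286 higher and 352 to 518 lower. Against C1q macrophages, 937 were higher and 915 lower after thinning, and leaving out 1 library gave 393 to 1285 higher and 692 to 1436 lower. Without the library block 0 genes were called in either direction in the first test, and 566 higher and 668 lower in the second. The library block pairs the classes within a library. Between time points, no paired analysis was possible because each had 1 library. Both the number of libraries and depth limit these results.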
